A study of Homo sapiens with 6 samples.

Results

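The 10 genes followed here encode enzymes that remove superoxide or peroxides. They are SOD1, SOD2, SOD3, CAT, GPX1, GPX3, GPX4, GPX8, PRDX3 and PRDX5, and they were taken from the tables by gene symbol, with no cutoff on a measured value. All 10 were among the 20461 entries with an Ensembl identifier and all 10 were among the 13645 genes tested. Transcripts were measured by RNA sequencing of ARPE-19, an established human retinal pigment epithelial cell line. The control group was 3 libraries from cells given a control lentivirus, and the PDZK1 group was 3 libraries from cells given a PDZK1 overexpression lentivirus. PDZK1 is a scaffold protein with PDZ domains. Both groups received virus at a multiplicity of infection of 10, were selected with 4 μg/ml puromycin and were then kept in 37.5 mM glucose for 48 h, so the comparison is of PDZK1 overexpression within high glucose, and no other glucose level was analysed here. The promoter of the vector, the number of clones and whether replicates were separate cultures are not given in the sources used here.

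Superoxide dismutases turn superoxide into hydrogen peroxide. The SOD1 enzyme does so in the cytosol, SOD2 in the mitochondrial matrix and SOD3 outside the cell. Catalase in peroxisomes breaks hydrogen peroxide down to water and oxygen, while many glutathione peroxidases and peroxiredoxins reduce peroxides with electrons that come, in the end, from NADPH. The retinal pigment epithelium is known for a high oxidative load, since it lies under light and takes up the lipid-rich outer segments of photoreceptors.

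Most glutathione peroxidases are selenoproteins, in which a UGA codon is read as selenocysteine at the active site, whereas GPX8 has cysteine there. The coding sequence around this codon is shown because it is the feature that separates GPX8 from the other 3 glutathione peroxidases followed here. The windows of 39 bases come from GENCODE 29 transcripts (GRCh38), and capitals mark the codon. It is codon 49 of GPX1 (chr3:49358132-49358134, minus strand), codon 73 of GPX3 (chr5:151025469-151025471, plus strand), codon 73 of GPX4 (chr19:1105403-1105405, plus strand) and codon 79 of GPX8 (chr5:55161024-55161026, plus strand).
GPX1: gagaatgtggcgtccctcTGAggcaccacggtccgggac
GPX3: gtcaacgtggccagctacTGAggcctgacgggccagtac
GPX4: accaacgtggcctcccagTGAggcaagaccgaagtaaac
GPX8: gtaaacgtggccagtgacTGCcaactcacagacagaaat
Of these 39 bases, GPX3 shared 25 with GPX1, GPX4 shared 23 and GPX8 shared 18.

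Libraries held between 27970618 and 32804567 counts. PDZK1 itself had 19, 18 and 23 counts in the controls, against 3020, 2541 and 2828 in the PDZK1 libraries, a log2 fold change of 7.03 in the direction of the labels. The second principal component, with 21.1% of the variance, placed control replicate 3 (-29.99) away from the other controls (14.5 and 18.8). Values without that library are given for SOD2, the SOD2 to SOD1 ratio, GPX3 and GPX8. The epithelial keratins KRT8 (531 to 613 FPKM) and KRT18 (452 to 535 FPKM) and the pigment epithelium factor OTX2 (20.3 to 26.9 FPKM) were present, while RPE65 and TTR, which mark mature pigment epithelium, were listed at 0 in every library. They come from a list of 15 pigment epithelium markers, of which 11 could be tested. Their log2 fold changes ran from -0.83 to 4.55. In edgeR 0 passed the threshold (3.83% of all genes did) and 1 had an unadjusted p under 0.05 (17.5% of all genes). BEST1, a chloride channel of this epithelium, stood at 77.5 FPKM in PDZK1 replicate 1 and at 0.94 to 1.41 FPKM in the other 5 libraries. Its neighbour in the genome, FTH1, had the lowest CPM of the 6 libraries in PDZK1 replicate 1 (4897), against 5189 to 5617 in the others. Several markers of other cell types were at 0 in all 6 libraries, namely PTPRC, CD3E and AIF1 of leukocytes, GNAT1 and CRX of photoreceptors, CDH5 of endothelium and HBB, HBA1 and HBA2 of red cells. Other markers on these lists were not, such as PDE6B of photoreceptors (4.44 to 7.04 FPKM) and KDR of endothelium (0.54 to 0.80 FPKM). CD68 (66.5 to 85.8 FPKM) and VIM (1947 to 2474 FPKM), which many cultured cells express, were the most abundant genes of the leukocyte and Muller glia lists. The summed level of 6 fibroblast or pericyte markers was 40.8 to 42.2 FPKM in the controls, against 44.3 to 45.7 FPKM in the PDZK1 group, and DCN was at 0. Of the 5 that could be tested, 0 passed the threshold in edgeR, beside 3.83% of all genes. At an unadjusted p under 0.05 there were 2, COL1A1 (0.53) and PDGFRB (0.20), beside 17.5% of all genes. The summed leukocyte list, nearly all CD68, was 70.8 to 85.8 FPKM in the controls, against 66.6 to 68.3 FPKM, and the summed endothelial list was 0.81 to 0.84 FPKM, against 0.62 to 0.67 FPKM. CD68, the 1 leukocyte gene tested, gave -0.22 (adjusted p 0.134 by edgeR, unadjusted p under 0.05). Of 2 tested endothelial genes, 0 passed the threshold and 1 had an unadjusted p under 0.05, beside 17.5% of all genes. Among all genes tested, 23.9% had groups that did not overlap in CPM. The part of other cells or of their genes in the enzymes' values was not tested.

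The first question was how abundant each enzyme's transcript was. Levels of different genes were compared in FPKM, which scale for transcript length. SOD2 was the most abundant on average (364 FPKM over the 6 libraries), and it was followed by GPX4 (316), PRDX5 (311), GPX1 (277), PRDX3 (235) and SOD1 (160). CAT (42.0), GPX3 (34.8), GPX8 (21.5) and SOD3 (10.4) made up a lower tier. The first place of SOD2 came from the controls (438 FPKM), since in the PDZK1 group its mean (291 FPKM) lay below those of PRDX5 (312) and GPX4 (306). The lower tier thus held catalase, the secreted glutathione peroxidase, the endoplasmic reticulum member GPX8 and the extracellular dismutase.

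The order of the upper tier was not fixed across libraries. SOD2 exceeded GPX4 in 4 of 6 libraries, GPX4 exceeded PRDX5 in 4, PRDX5 exceeded GPX1 in 4 and GPX1 exceeded PRDX3 in 5, and the ranges of each of these pairs overlapped. From PRDX3 downward, no neighbouring pair overlapped, so PRDX3, SOD1, CAT, GPX3, GPX8 and SOD3 kept this order in all 6 libraries. Among the 20461 entries, 141 had a higher mean FPKM than SOD2 and 5994 a higher one than SOD3, and the means of SOD2 and SOD3 differed by a factor of 35.2.

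**Figure D1:**
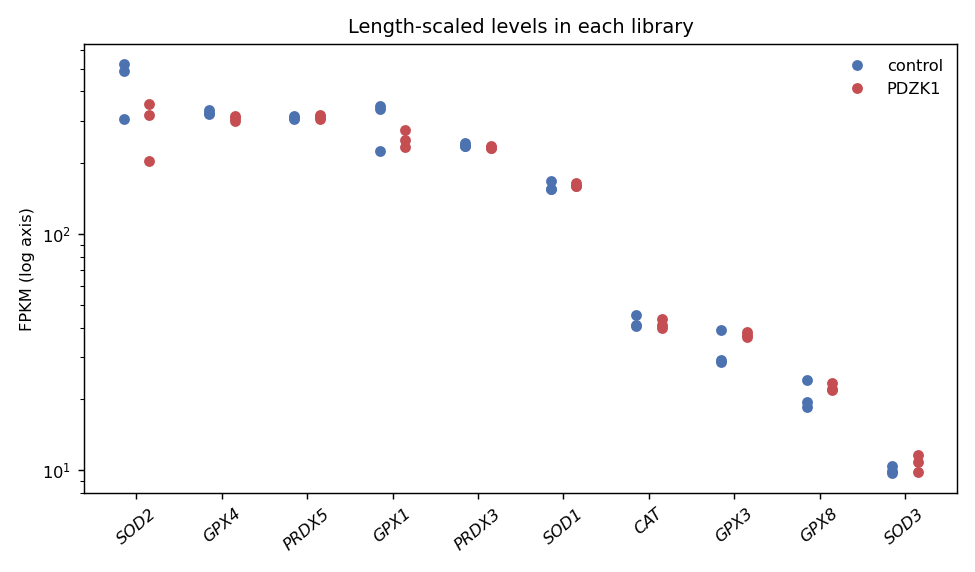
Length-scaled level (FPKM, log axis) of each enzyme in each library, with control libraries in blue and PDZK1 libraries in red, ordered by the mean of the 6 libraries. SOD2 spans 203 to 520 FPKM, whereas PRDX3 spans 230 to 243 FPKM.

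The main question was whether PDZK1 overexpression in high glucose goes with other levels of the enzymes' transcripts. None of the 10 passed the threshold of an adjusted p under 0.05 in edgeR's quasi-likelihood test, beside 3.83% of all genes tested (1.41% higher and 2.41% lower). DESeq2 and limma-voom also called 0 of the 10, and 1 gene, GPX4, had an unadjusted p under 0.05 in edgeR, beside 17.5% of all genes. Of the estimates, 5 were above 0 and 5 below, with a median log2 fold change of -0.016 over the enzymes and -0.000255 over all genes tested. GPX4 and PRDX3 were the 2 enzymes whose groups did not overlap in CPM, beside 23.9% of all genes, and in FPKM the groups of PRDX3 overlapped. The 95% interval lay inside a 1.5-fold change either way in 8 of the 10, beside 78.4% of all genes, and inside a 1.2-fold change in 6 of the 10, beside 48.6%. SOD2 and GPX1 were the enzymes whose intervals reached past 1.5-fold. In bulk RNA, fewer cells with a transcript and less of it per cell cannot be told apart.

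**Figure D2:**
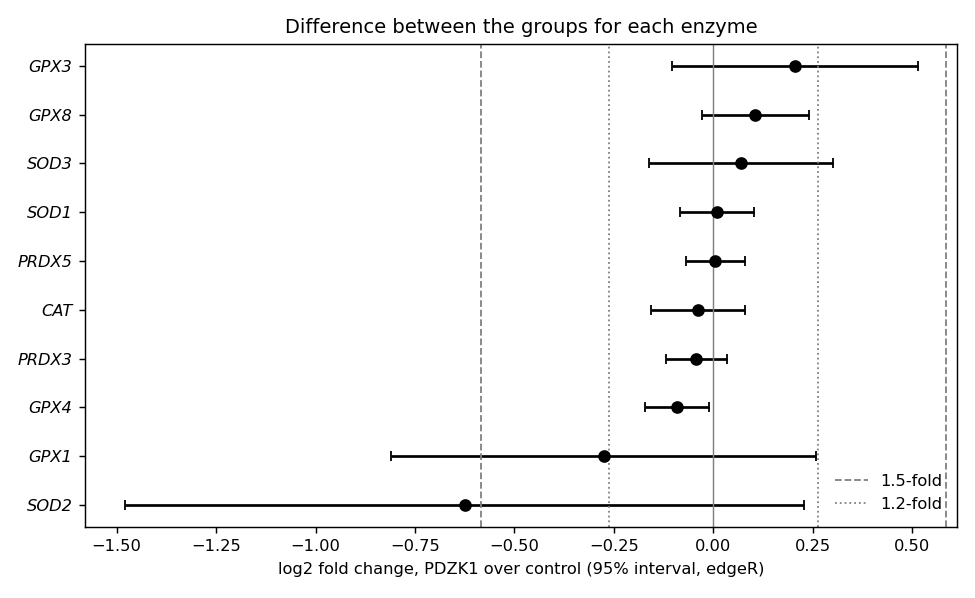
Log2 fold change of PDZK1 over control for each enzyme (points) with its 95% interval from edgeR (bars); dashed and dotted lines mark 1.5-fold and 1.2-fold changes. The interval of SOD2 runs from -1.48 to 0.23 and that of PRDX5 from -0.069 to 0.079.

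Positions are those of RefSeq on GRCh38.p14. SOD2 (chr6:159669069-159762281, minus strand), the manganese enzyme of mitochondria, was at 2181, 2092 and 1291 CPM (counts scaled to library size by TMM) in control replicates 1 to 3 and at 1355, 849 and 1403 CPM in PDZK1 replicates 1 to 3. Control replicates 1 and 2 were the highest and PDZK1 replicate 2 the lowest, and the groups overlapped because control replicate 3 lay below PDZK1 replicates 1 and 3. The means were 1855 ± 490 and 1203 ± 307 CPM (SD, n = 3), and the log2 fold change came to -0.63 (SE 0.32, with -1.48 to 0.23 as its 95% interval, adjusted p 0.420 by edgeR), so the interval ran from 0.359 to 1.17 times control. When 1 library was left out, it was -0.83 at the lowest (without control replicate 3, adjusted p 0.262 by edgeR). It was -0.43 at the highest (without PDZK1 replicate 2, adjusted p 0.581).

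Of the 10 enzymes, SOD2 also varied most within groups. Its SD of log2 CPM within groups was 0.41, at percentile 99.1 of the 9981 genes with a mean of at least 10 CPM, whose median SD was 0.072. In GENCODE 29, a gene named SOD2 shares exon sequence with ACAT2 and WTAP on the opposite strand. On its own strand it overlaps exons of SOD2-OT1 and of another entry named SOD2. The deposited SOD2 identifier is not in that release, so the overlap was matched by gene name. The strand setting of the counting is not given in the sources used here, so the SOD2 count is uncertain. ACAT2 was at 235, 235 and 189 CPM in the controls, against 215, 200 and 213 CPM in the PDZK1 libraries. WTAP was at 140, 143 and 121 CPM and at 120, 106 and 116 CPM, respectively. Both were lowest among controls in replicate 3 and lowest among PDZK1 libraries in replicate 2, as SOD2 was, and the part of this overlap in the SOD2 value was not tested.

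SOD1 (chr21:31659693-31668931, plus strand), the copper and zinc enzyme of the cytosol, was at 150, 151 and 164 CPM in the controls, against 159, 155 and 153 CPM in the PDZK1 libraries. The PDZK1 values all lay within the control range. The log2 fold change was 0.0093 (95% interval -0.083 to 0.10, adjusted p 0.940 by edgeR), an interval inside a 1.2-fold change. SOD3 (chr4:24795573-24800842, plus strand), the secreted dismutase, had 405 to 443 counts in the controls, against 455 to 479 in the PDZK1 libraries, which correspond to 12.5, 13.2 and 16.1 CPM and to 14.95, 14.6 and 14.4 CPM. Control replicate 3 was the highest and the other controls the lowest, and the log2 fold change was 0.069 (-0.16 to 0.30, adjusted p 0.793 by edgeR). In FPKM the order of SOD3 was different, since control replicate 3 (10.4) lay below PDZK1 replicates 1 (11.6) and 3 (10.8).

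The balance of the mitochondrial over the cytosolic dismutase was taken as the SOD2 to SOD1 ratio of FPKM. It was 3.37, 3.15 and 1.83 in the controls, against 1.92, 1.27 and 2.22 in the PDZK1 libraries. The groups overlapped, with means of 2.78 ± 0.83 and 1.81 ± 0.49 (SD, n = 3), a log2 difference of -0.61 and a two-sided exact permutation p of 0.3. With 3 libraries against 3, this test cannot go below 0.1. Without control replicate 3 the log2 difference of the ratio was -0.89 (exact permutation p 0.2).

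CAT (chr11:34438934-34472060, plus strand), which encodes catalase, was at 101, 103 and 113 CPM in the controls, against 108, 99.1 and 102 CPM in the PDZK1 libraries. The ranges overlapped, with control replicate 3 the highest and PDZK1 replicate 2 the lowest. The log2 fold change was -0.038 (95% interval -0.16 to 0.080, adjusted p 0.772 by edgeR), an interval inside a 1.2-fold change.

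**Figure D3:**
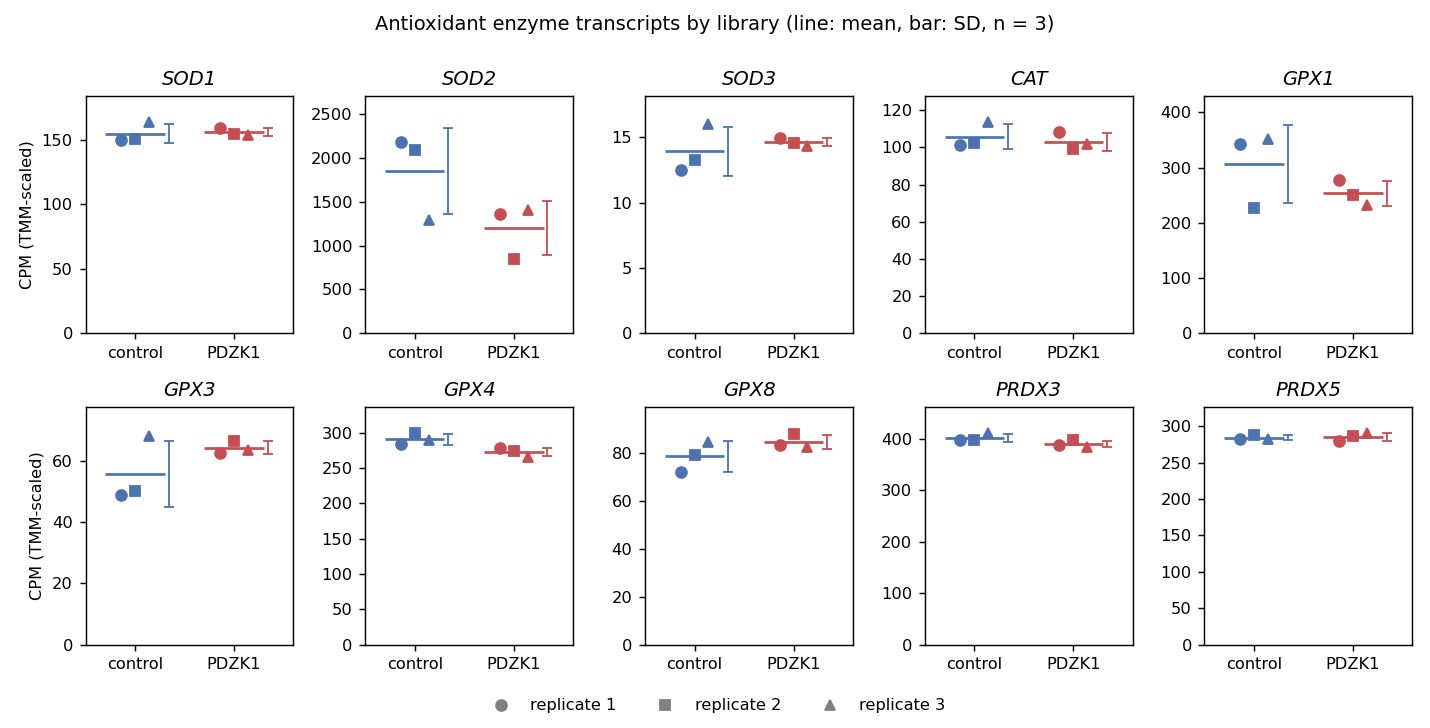
TMM-scaled CPM of each enzyme in each library, on a linear axis from 0, with markers for replicates 1 to 3, a line at the mean and a bar of 1 SD (n = 3). Control replicate 3 (triangle) is the lowest control for SOD2 and the highest for GPX3, and control replicate 2 (square) is the lowest for GPX1.

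GPX1 (chr3:49357176-49358353, minus strand), the abundant cytosolic and mitochondrial selenoenzyme, was at 342, 226 and 351 CPM in the controls, against 278, 250 and 232 CPM in the PDZK1 libraries. Control replicate 2 was the lowest of all 6 libraries and the other controls the highest, so the PDZK1 values lay between them. Its log2 fold change came to -0.28 (SE 0.20, with -0.81 to 0.26 as its 95% interval, adjusted p 0.579 by edgeR). Without control replicate 2 it was -0.45 and passed the threshold (adjusted p 0.0317). Without any of the other libraries it ran from -0.34 to -0.17 and did not. Its within-group SD was at percentile 97.7, and GPX1 has 2 numbered pseudogenes whose reads could not be separated here.

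GPX3 (chr5:151020591-151028988, plus strand), the secreted selenoenzyme of plasma, was at 48.9, 50.3 and 68.3 CPM in the controls, against 62.6, 66.7 and 63.7 CPM in the PDZK1 libraries. Control replicates 1 and 2 lay below every PDZK1 library and control replicate 3 lay above every one. The fitted log2 fold change was 0.21 (SE 0.13, with -0.10 to 0.51 as its 95% interval, adjusted p 0.482 by edgeR). Without control replicate 3 it was 0.38 and passed the threshold (adjusted p 0.00214), and without any other library it ran from 0.12 to 0.23 and did not. Control replicate 3 was also the library that stood apart on the second principal component.

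GPX4 (chr19:1103994-1106779, plus strand), the enzyme that reduces lipid peroxides in membranes, had the lowest adjusted p of the 10. It was at 284, 299 and 290 CPM in the controls, against 279, 274 and 266 CPM in the PDZK1 libraries, so the groups did not overlap. The means were 291 ± 7.86 and 273 ± 6.18 CPM (SD, n = 3), a difference of -6.12% on the fitted scale, with a log2 fold change of -0.091 (SE 0.036, 95% interval -0.17 to -0.011). The unadjusted p was 0.0302 and the adjusted p 0.222 by edgeR, so the difference was not past the threshold. The interval excluded a 1.2-fold change.

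GPX8 (chr5:55160171-55167297, plus strand), a membrane enzyme of the endoplasmic reticulum, was at 71.9, 79.0 and 84.6 CPM in the controls, against 83.2, 87.7 and 82.4 CPM in the PDZK1 libraries. The highest was PDZK1 replicate 2 and the lowest control replicate 1, and the groups overlapped at control replicate 3. In FPKM control replicate 3 was the highest (24.0), above PDZK1 replicate 2 (23.3). The log2 fold change was 0.11 (95% interval -0.029 to 0.24, adjusted p 0.413 by edgeR). Without control replicate 3 it was 0.16 (adjusted p 0.108 by edgeR). The 3 selenocysteine enzymes gave -0.28, 0.21 and -0.091 for GPX1, GPX3 and GPX4, and the cysteine enzyme GPX8 gave 0.11.

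The peroxiredoxins were the steadiest. PRDX3 (chr10:119167720-119178812, minus strand), the mitochondrial peroxiredoxin, was at 397.4, 398 and 412 CPM in the controls, against 389, 397.4 and 385 CPM in the PDZK1 libraries. The groups did not overlap in TMM-scaled CPM, but control replicate 1 and PDZK1 replicate 2 differed only past the rounding of these values. In FPKM the groups overlapped, since PDZK1 replicate 2 (235.6) lay above control replicates 1 (235.5) and 2 (234.8). The log2 fold change was -0.043 (95% interval -0.12 to 0.034, adjusted p 0.579 by edgeR). PRDX5 (chr11:64318121-64321811, plus strand), found in mitochondria, peroxisomes and cytosol, was at 283, 289 and 283 CPM in the controls, against 279.6, 286 and 291 CPM in the PDZK1 libraries. The groups overlapped, with a log2 fold change of 0.0054 (95% interval -0.069 to 0.079, adjusted p 0.959 by edgeR). Their within-group SDs lay at percentiles 5.58 and 4.32. PRDX3 has 4 numbered pseudogenes, SOD1 has 3 and SOD2 has 1, and reads shared with them could not be separated here.

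The summed FPKM of the 10 enzymes were 1975, 1846 and 1811 in the controls, against 1721, 1578 and 1703 in the PDZK1 libraries. Every control library was above every PDZK1 library, with means of 1877 ± 86.6 and 1667 ± 77.6 FPKM (SD, n = 3) and a log2 difference of -0.17. On summed CPM, which does not scale for length and so gives SOD2 more weight, it was -0.33. The two-sided exact permutation p was 0.1, the smallest that 3 libraries against 3 allow. Without SOD2 the sums overlapped, with a log2 difference of -0.063 (exact permutation p 0.3).

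The other 8 genes of these families were looked at next. PRDX1 and PRDX2, cytosolic peroxiredoxins, PRDX4 of the secretory pathway and PRDX6, which also reduces phospholipid peroxides, could be tested. In edgeR 0 of the 4 passed, beside 3.83% of all genes, and 0 had an unadjusted p under 0.05, beside 17.5%. Their log2 fold changes were -0.069, 0.040, -0.067 and -0.031, and all 4 intervals lay inside a 1.2-fold change, beside 48.6% of all genes. GPX5 and GPX6 had 0 counts in every library, which allows up to 0.0915 to 0.109 CPM at 3 counts a library. GPX2 had 9, 4 and 0 counts in the controls, against 2, 0 and 8 in the PDZK1 libraries. GPX7, a peroxidase of the endoplasmic reticulum, had 12, 14 and 8 counts and 0, 0 and 2 counts, respectively, and the count filter left it out of the edgeR test. DESeq2, with its own filter, called GPX7 (adjusted p 0.0441), and edgeR without a filter did not (adjusted p 0.0844).

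Enzymes of the same chemistry depend on other proteins, so 11 further lists were counted in the fit over all genes. With the 8 family genes they held 145 genes, of which 126 were tested and 7 passed the threshold (5.56%, beside 3.83% of all genes), 1 of them higher and 6 lower. At an unadjusted p under 0.05 there were 24 of the 126, beside 17.5% of all genes. Of the 12 lists, 3 held a gene past the threshold. The lists were chosen with earlier results of these data known, so these shares are a description only.

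NADPH supplies the electrons for glutathione and thioredoxin reductases. Of 10 genes of NADPH supply, 3 passed, beside 3.83% of all genes. PGD, of the pentose phosphate pathway, fell from 143 ± 4.43 to 122 ± 3.84 CPM (log2 fold change -0.23, adjusted p 0.0110 by edgeR). IDH2, the mitochondrial NADP-dependent isocitrate dehydrogenase, fell from 58.9 ± 2.45 to 48.1 ± 1.25 CPM (-0.29, adjusted p 0.0154). IDH1, its cytosolic counterpart, rose from 184 ± 9.70 to 209 ± 4.13 CPM (0.19, adjusted p 0.0419), a call that limma-voom did not make (adjusted p 0.0617). The 3 calls did not move in 1 direction, and the other 7 genes did not pass, TKT among them, which had the highest FPKM of the list (-0.055). Beside PGD, 38 of its 39 tested neighbours within 2 Mb on chromosome 1 were also lower (median -0.22, 13 past the threshold), and the part of this region in the PGD value was not tested. The neighbours of the 10 enzymes had medians between -0.066 for GPX8 and 0.018 for GPX3.

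Among 13 tested genes of superoxide and hydrogen peroxide sources, 3 passed, all lower. Of all genes tested, 3.83% passed, 1.41% higher and 2.41% lower. MAOA, a mitochondrial monoamine oxidase that releases hydrogen peroxide, was at 17.8, 16.9 and 16.1 CPM in the controls, against 8.71, 9.92 and 9.81 CPM in the PDZK1 libraries. The groups lay far apart, and MAOA fell by 0.84 on the log2 scale (adjusted p 0.00123 by edgeR). MAOB, which lies next to it, had 125, 97 and 119 counts and 59, 45 and 73 counts, respectively, and fell by 1.04 (adjusted p 0.0425), which limma-voom did not call (adjusted p 0.0578). QSOX1, a sulfhydryl oxidase of the secretory pathway with the highest FPKM of the list, fell by 0.15 (adjusted p 0.0344). NOX4, an NADPH oxidase, did not pass (0.21, adjusted p 0.289). MAOA kept its call in all 6 fits that left out a library. IDH1, IDH2 and QSOX1 kept theirs only without control replicate 3, and MAOB in none. PGD lost its call without control replicate 2, PDZK1 replicate 1 or PDZK1 replicate 2 (adjusted p 0.0525 to 0.0833).

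Of 13 tested genes of copper and metal supply, MT1M, a metallothionein, was the 1 past the threshold, beside 3.83% of all genes. It had 53, 73 and 54 counts in the controls, against 14, 27 and 15 in the PDZK1 libraries, and it fell by 1.77 on the log2 scale (adjusted p 0.0189 by edgeR). It was not past the threshold without control replicate 2, PDZK1 replicate 1 or PDZK1 replicate 3 (adjusted p 0.1003 to 0.104). MT2A, the metallothionein of highest FPKM, gave 0.087 (adjusted p 0.534), and CCS, the copper chaperone that loads SOD1, gave 0.053 (adjusted p 0.797).

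The 8 lists that follow each held 0 genes past the threshold in edgeR, beside 3.83% of all genes. Their counts at an unadjusted p under 0.05 stand beside 17.5% of all genes. In the thioredoxin and sulfiredoxin system, 3 of 10 genes had an unadjusted p under 0.05, and TXNRD1, a thioredoxin reductase at 558 FPKM and a selenoprotein, gave 0.11 (adjusted p 0.134). DESeq2 called TXNRD1 (adjusted p 0.00381). In glutathione synthesis and reduction, 2 of 10 genes had an unadjusted p under 0.05, and SLC3A2, a subunit of the cystine importer, gave 0.084 (adjusted p 0.307). DESeq2 called 0 of that list.

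Selenoprotein synthesis had 1 of 9 genes at an unadjusted p under 0.05, which was SEPHS2, the selenophosphate synthetase (0.096, adjusted p 0.248). The other selenoproteins had 1 of 13, and SELENOF, the most abundant of them, gave -0.065 (adjusted p 0.448). DESeq2 called 0 genes in both lists. In the peroxisome list 6 of 21 genes had an unadjusted p under 0.05 (17.5% of all genes did), and HSD17B4, an enzyme of peroxisomal fatty acid oxidation, gave -0.090 (adjusted p 0.197). PEX10, a peroxisome import factor, was nearest the threshold (-0.35, adjusted p 0.0593). DESeq2 called it (adjusted p 0.0348). Of its 53 tested neighbours within 2 Mb on chromosome 1, 49 were lower too (median -0.22). Past the threshold were 14 lower and 1 higher, and the part of this region in the PEX10 value was not tested.

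Heme peroxidases had 1 tested gene of 7, PXDN, a peroxidase of the extracellular matrix (-0.20, adjusted p 0.114, unadjusted p under 0.05), which DESeq2 called (adjusted p 0.0395). All 10 tested neighbours of PXDN within 2 Mb were lower too (median -0.13), and the part of this region in the PXDN value was not tested. The regulators had 1 of 12 at an unadjusted p under 0.05, which was NFE2L2, the antioxidant response factor NRF2 (-0.13, adjusted p 0.109), and NFE2L1, the most abundant regulator, gave -0.029. DESeq2 called 0 regulators. Lipid peroxide partners of GPX4 had 0 of 10 at an unadjusted p under 0.05, and FTH1, the ferritin heavy chain, gave -0.098 (adjusted p 0.332). DESeq2 called 0 of these. Without control replicate 3, TXNIP (1.03, adjusted p 0.0198), PXDN (-0.26, adjusted p 0.00271), GPX7 (adjusted p 0.0331) and HMOX1 (0.26, adjusted p 0.0171) were called, and without control replicate 1, PEX10 was (-0.42, adjusted p 0.0488).

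**Figure D4:**
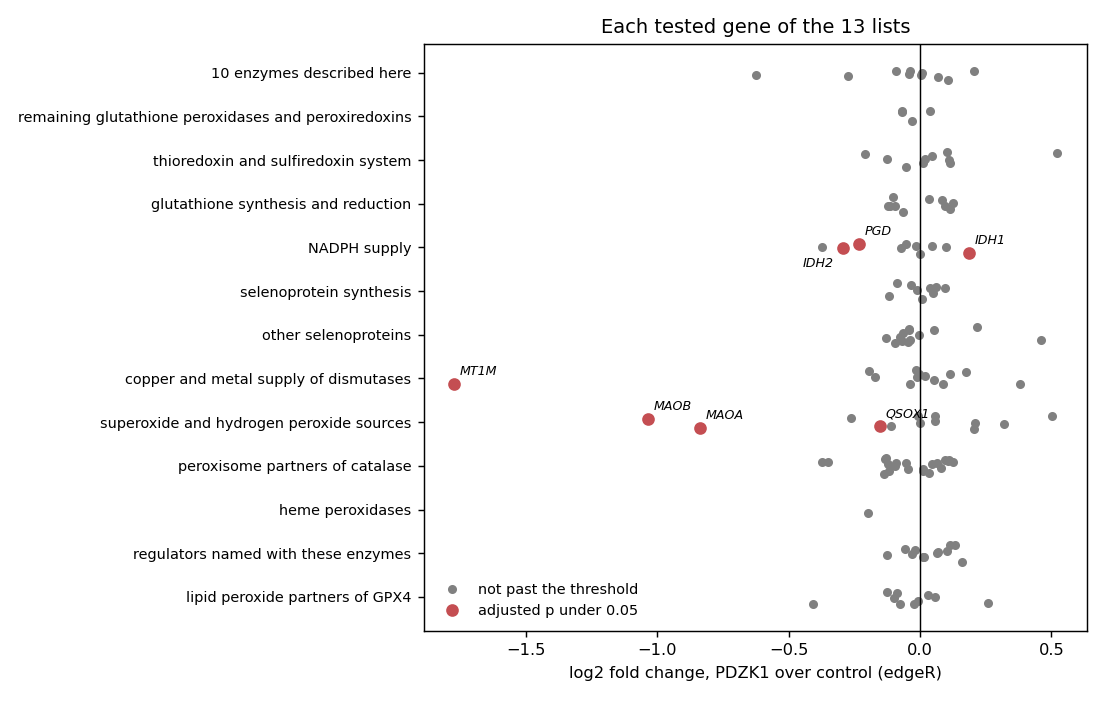
Log2 fold change of PDZK1 over control for each tested gene (points) of the 10 enzymes and of the 12 other lists, with genes past an adjusted p of 0.05 by edgeR in red and named. The 10 enzymes lie between -0.63 and 0.21, and the 7 red points lie in the NADPH, metal and source lists.

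The genes whose pattern over the 6 libraries lay nearest were sought for GPX4 and GPX8, the enzymes of lowest adjusted p, among 117 list genes of mean at least 10 CPM. The measure was the root mean square difference of log2 CPM centred on its mean over the 6 libraries. For GPX4 these were ERO1A, an endoplasmic reticulum oxidase (0.030), and PEX19, a peroxisome import factor (0.035). For GPX8 they were SESN2, a stress-induced sestrin (0.035), and TXN, which encodes thioredoxin (0.040).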

How the data were processed

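Per the labels, RNA extracted with Trizol was made into libraries with a VAHTS Universal kit. The submitters' processing notes name fastp 0.20.1, HISAT2 2.2.1 and the build GRCh38; the counting program and the strand setting are not given in the sources used here. The authors deposited 2 tables, estimated counts per gene stored as whole numbers and FPKM, which scale for transcript length and depth. In each, 3 further columns of per-sample values, headed NG, matched the labels of no sample and were not used. Counts were tested in R 4.3.3 with edgeR 4.0.16 (filterByExpr, TMM, robust quasi-likelihood), with Benjamini-Hochberg adjustment over 13645 genes and a threshold of 0.05. The 853 assembled loci among 21314 entries were left out. Intervals of 95% come from the fit. CPM are TMM-scaled. Floors of 3 counts cover counting error only, and p-values measure the spread between these libraries, which may be technical.

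Libraries were grouped by the lentivirus in their labels. Alternatives were DESeq2 1.42.0, limma 3.58.1 (voom, and log2 FPKM with pseudocounts of 1 and 0.1), other scalings and filters, a replicate block, a test against 1.2-fold and leaving out each library. On simulated counts edgeR recovered 94.5% of changes of 1 log2 unit and 50.6% of changes of 0.5. Every simulated gene was given the same dispersion, so these shares do not apply to single enzymes. The within-group SD of log2 CPM ran from 0.024 for PRDX5 to 0.41 for SOD2, and the libraries varied most for SOD2 and GPX1. Same-numbered libraries did not deviate together. The enzymes, the lists and the rule for named genes (all 10 enzymes, PDZK1, the remaining family, and of each list the genes past the threshold and the gene of highest FPKM) were chosen with earlier results of these data known. SOD2-OT1, ACAT2, WTAP, CCS, NOX4, NFE2L2, PEX10, TXNIP, HMOX1 and the genes in the closing observations outside the lists were named after their values were seen. Gene positions and neighbours come from RefSeq (GRCh38.p14).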

Additional observations from a re-analysis of the deposited data

How the results depend on the processing

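None of the 10 enzymes passed the threshold in any of the 13 alternatives that kept all 6 libraries (lowest adjusted p 0.216), and in 181 of 190 values of single enzymes the direction and the side of the threshold held. The 2 that passed were GPX1 (-0.45) and GPX3 (0.38) in the fits named with them. The sign turned in 7 values from fits that left out 1 library. These belonged to SOD1 (-0.013 to 0.051), SOD3 (-0.0022 to 0.18), CAT (-0.073 to 0.014) and PRDX5 (-0.0080 to 0.022); the cause was not tested. Across leave-one-out fits the count of enzymes past the threshold ran from 0 to 1, their median log2 fold change from -0.033 to 0.0072, the log2 difference of summed FPKM from -0.20 to -0.13 and that of the SOD2 to SOD1 ratio from -0.89 to -0.38. With PRDX3 in place of SOD1, an alternative chosen after seeing the data, the ratio gave -0.56.

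The count of all genes was 814 with DESeq2, 184 on log2(FPKM + 1), 185 with a pseudocount of 0.1, 185 without the FPKM filter and 111 in a test against 1.2-fold, whose criterion is stricter. When 1 library was left out, it ran from 181 (without PDZK1 replicate 1) to 875 (without control replicate 3), against 522 in the main fit. The remaining family held 1 call with DESeq2 and 1 on unfiltered log2(FPKM + 1), both GPX7, and DESeq2 gave 1 in the thioredoxin, 1 in the peroxisome and 1 in the heme peroxidase list. On FPKM the NADPH list held 0 in all 3 fits, the source list 1 (MAOA) and the peroxisome list 1 (PEX2). In the 1.2-fold test the NADPH and metal lists held 0 and the source list 1. With all 6 libraries, IDH1 and MAOB also lost their calls in limma-voom (adjusted p 0.0617 and 0.0578), in edgeR without robust estimation (0.0617 and 0.0673) and with assembled loci kept (0.0526 and 0.0567), and QSOX1 with library totals only (0.0541). Leaving out 1 library gave 0 to 3 for NADPH, 1 to 2 for the sources and 0 to 1 for the metal, remaining family, thioredoxin, peroxisome, heme peroxidase and regulator lists. A fit with a replicate block called 163 genes in all, with 0 in the NADPH list, 0 in the metal list, 1 in the source list and 0 of the 10 enzymes. Same-numbered libraries had residual correlations of -0.046, -0.056 and -0.14, so the numbers were not taken as pairing.

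On TMM-scaled CPM in place of FPKM, the log2 difference of the summed levels was -0.33. With 3 libraries a group, precision was lowest for SOD2 and GPX1, whose libraries varied most.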

Other observations

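The pattern of SOD2 was compared, after its values were seen, with 9974 genes of mean at least 10 CPM by the root mean square difference of centred log2 CPM over the 6 libraries. The nearest were SLC7A8, an amino acid transporter (0.11), CXCL8, a neutrophil chemokine (0.11), ICAM1, an adhesion molecule (0.12), C1R, a complement protease (0.12), TNFAIP3, an inhibitor of NF-kappaB signalling (0.13), PTGES, a prostaglandin synthase (0.13), and GCH1, which makes tetrahydrobiopterin (0.14). These genes were picked for likeness to SOD2 in the same 6 libraries, so their values are a description and no comparison between the groups was drawn from them. CXCL8 was at 370, 392 and 258 CPM in the control libraries and at 261, 185 and 252 CPM in the PDZK1 libraries. ICAM1 was at 96.0, 99.3 and 53.7 CPM and at 70.7, 44.5 and 65.4 CPM, respectively.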
